A study of Mus musculus with 9 samples.

Results

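The genes described here encode the constitutive proteasome, the form of the enzyme that every cell makes, in the mouse colon carcinoma line MC38 and in lines selected from it for growth in the liver. Members were the genes whose symbol begins with Psma, Psmb, Psmc or Psmd followed by a digit, without the interferon-inducible subunits Psmb8, Psmb9 and Psmb10. Of the 16399 genes listed in each library, 39 had such a symbol and 36 were members. Of these, 35 reached at least 1 TPM (a unit of transcript abundance corrected for transcript length and for the total of the library) in at least 3 of the 9 libraries. The exception was Psmb11, the subunit of the thymus cortex, with a highest value of 0.02 TPM. The 35 genes comprised 14 core genes (7 of the alpha ring and 7 of the beta ring) and 21 cap genes. The cap genes held 6 ATPases, 11 other cap subunits, 3 chaperones that carry Psmd names (Psmd5, Psmd9 and Psmd10) and Psmc3ip, a meiotic recombination factor named after Psmc3 that is not a subunit. The label "constitutive subunit" therefore applied to 31 of the 35 genes.

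Transcriptomes of cultured cells were compared between 3 groups of 3 biological replicates. MC38-P is the parental line, and MC38-LM3a and MC38-LM3b were derived from it independently by 3 rounds of injection into the spleen of immunocompetent C57BL/6 mice and recovery of the liver metastases. The parental cells used for selection carried a GFP-luciferase reporter, the labels give no treatment of the cultures, and the sources used here do not say whether a derivative is a single clone. The comparison of each derivative with MC38-P asks what accompanied selection, and that of MC38-LM3b with MC38-LM3a asks how far the derivatives differ.

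The proteasome degrades proteins that are tagged with ubiquitin. Alpha rings close the ends of a barrel whose beta rings hold the active sites, in Psmb5 (chymotrypsin-like activity), Psmb6 (caspase-like) and Psmb7 (trypsin-like). The cap binds ubiquitin, removes it and unfolds the substrate, driven by the ATPase ring Psmc1 to Psmc6. When proteasome activity is limiting, the transcription factor Nfe2l1 raises the subunit genes together, and interferon-gamma induces Psmb8, Psmb9 and Psmb10, which replace the constitutive active subunits in newly made particles.

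The libraries were not alike within groups, and this touched the results below. Values in MC38-LM3a replicate 3 increased with transcript length relative to its own group (Spearman rho = 0.67 across 11096 genes with a known length), and values in MC38-P replicate 3 decreased (rho = -0.65), while the MC38-LM3b libraries showed rho between -0.02 and 0.02. The other libraries of these groups deviated in the opposite direction, with rho = -0.57 and -0.54 for replicates 1 and 2 of MC38-LM3a and 0.53 and 0.43 for those of MC38-P. Each deviation was taken from the mean of the other libraries of the group. Such deviations are tied to each other, so these values alone do not show which library stands apart. The median log2 fold change of all 11287 tested genes was 0.00 for MC38-LM3a, but 0.21 for MC38-LM3b against MC38-P and 0.21 for MC38-LM3b against MC38-LM3a. Of 12 colon epithelial markers, 6 reached the filter (Epcam, Krt8, Krt18, Krt19, Krt20 and Cdx2), and none of the remaining 6 exceeded 1.03 TPM. Of these, Epcam, Krt8, Krt18 and Cdx2 were lower in both derivatives by limma, Epcam by 1.14 and 1.07 on the log2 scale, while Krt19 and Krt20 were higher in MC38-LM3a, by 0.39 and 0.55, and were not called in MC38-LM3b. Krt20 lay near the filter of 1 TPM, at 0.54 to 0.79 TPM in MC38-P and 1.21 to 1.83 TPM in MC38-LM3a. Cdx2 was below 1 TPM in every derivative library. The 2 leukocyte markers present summed to between 0 and 0.12 TPM over the 9 libraries. Of 8 macrophage markers, 4 were present and Cd68 and Cd14 reached the filter, and the summed level of the list was 38.8 to 40.2 TPM for MC38-P, 48.8 to 53.7 TPM for MC38-LM3a and 55.6 to 60.0 TPM for MC38-LM3b. Of 7 stellate and fibroblast markers, 5 were present and Col1a1 and Pdgfrb reached the filter, and that list summed to 12.6 to 18.8 TPM for MC38-P, 5.44 to 7.74 TPM for MC38-LM3a and 8.00 to 8.32 TPM for MC38-LM3b. Hepatocyte markers summed to at most 4.29 TPM and endothelial markers to at most 1.90 TPM. The part of these differences in the results below was not tested. TPM values carry no depth, so the counting error behind each level is not known.

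Subunit transcripts were abundant and formed a broad, ordered range. The 35 genes made up between 1.09% and 1.24% of all TPM in the 9 libraries. In MC38-P, core genes ranged from 266 ± 4.91 TPM for Psma1 to 998 ± 63.2 TPM for Psma7, both alpha-ring subunits (SD, n = 3), with a median over genes of 446 TPM. The most abundant beta-ring gene was Psmb4, a structural subunit, at 819 ± 50.0 TPM, and the least abundant was Psmb2, also structural, at 314 ± 7.70 TPM. Cap subunits were lower, from 182 ± 5.03 TPM for Psmd13 to 397 ± 30.5 TPM for Psmd2, a large scaffold subunit of the cap base. In every library, between 7 and 11 of the 14 core genes lay above the highest cap gene.

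**Figure D1:**
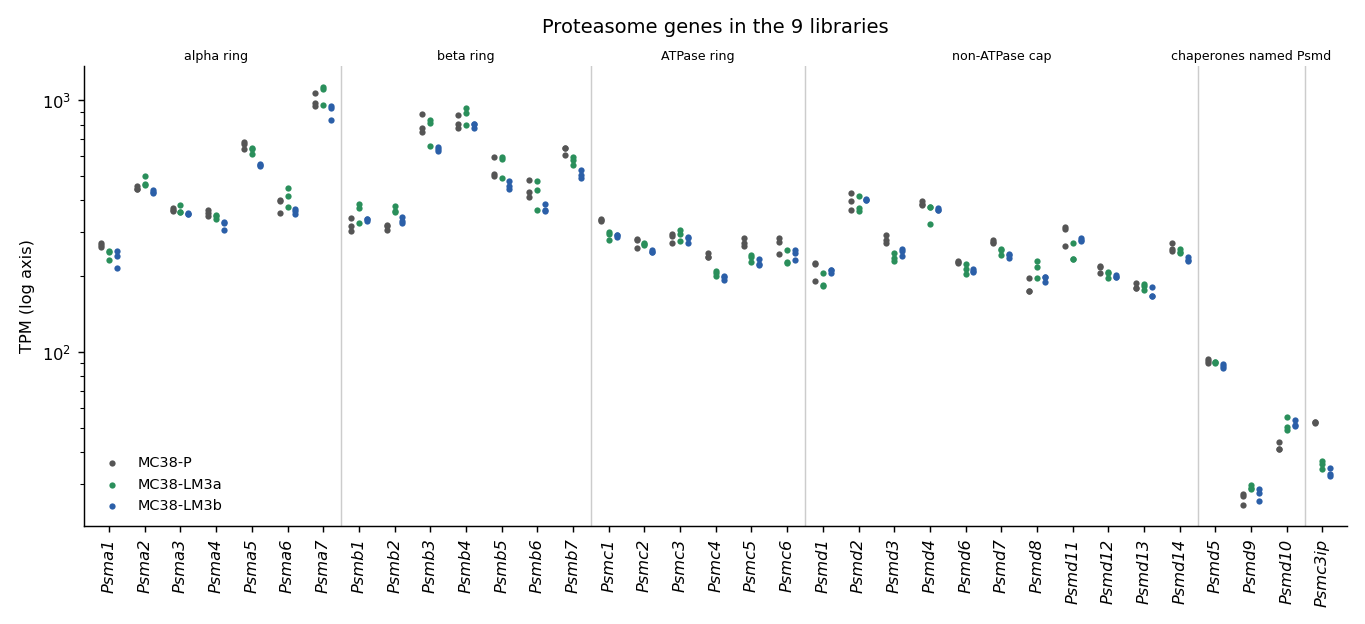
TPM (log axis) of the 35 proteasome genes in each of the 9 libraries, with one point per library, coloured by line and ordered by role. Core genes reach from 266 to 998 TPM in MC38-P, the cap subunits from 182 to 397 TPM, and Psmd5, Psmd9, Psmd10 and Psmc3ip lie below 100 TPM.

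The ATPases were the most even class. Their group means in MC38-P ran from 241 TPM for Psmc4 to 334 TPM for Psmc1, a coefficient of variation over the 6 genes of 11.0%, against 50.8% over the alpha ring, 37.9% over the beta ring and 27.9% over the other cap subunits. For MC38-LM3a this coefficient was 13.6%, and for MC38-LM3b 13.7%. The chaperones were far less abundant: Psmd5 stood at 92.0 ± 1.75 TPM, Psmd10 (gankyrin) at 42.0 ± 1.49 TPM and Psmd9 at 26.2 ± 1.38 TPM in MC38-P. Neighbours in the order of core levels often could not be separated, as the library ranges of 6 of the 13 neighbouring pairs overlapped in the parental line, 9 in MC38-LM3a and 4 in MC38-LM3b. Psma7, Psmb4, Psmb3, Psma5, Psmb7, Psmb5, Psma2, Psmb6, Psma6 and Psma3 followed each other in this descending order in all 3 lines. Among the 17 cap subunits, 11 of 16 neighbouring pairs overlapped in MC38-P.

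In MC38-LM3a most core genes were not called against the parental line, and several cap genes were lower. By limma with Benjamini-Hochberg adjustment over all 11287 genes, 3 of the 35 members were higher than in MC38-P, against 14.1% of all tested genes, and 6 were lower, against 13.8%. The core held 1 of these calls in 14 genes, Psmb2, and the cap held 8 in 21. The median log2 fold change was 0.03 over the core and -0.09 over the cap. The calls depended on the processing. Without replicate 3 of MC38-P and of MC38-LM3a, 7 core genes were higher (core median 0.12), and 2 cap genes were higher and 10 lower. There 18.4% of tested genes were higher and 45.2% lower (median -0.14). With offsets for GC content and length, 1 core gene was higher and 4 were lower (core median -0.06), and 1 cap gene was higher and 12 lower. With these offsets 27.1% of tested genes were higher and 25.3% lower. With only the 2 groups compared or with a replicate block, 3 cap genes were lower, against 9.47% and 9.74% of tested genes. No member exceeded an absolute log2 fold change of 1, which 2.89% of tested genes did with an adjusted p under 0.05.

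The 3 ATPase genes called in MC38-LM3a all fell. Psmc4 stood at 238, 239 and 247 TPM in MC38-P, against 210, 206 and 200 TPM in MC38-LM3a (-0.23 ± 0.05 on the log2 scale, SE, limma adjusted p = 0.00691). Psmc1 fell by 0.20 on the log2 scale (limma adjusted p = 0.0147) and Psmc5 by 0.21 (limma adjusted p = 0.0183). For each of the 3 genes the ranges of the groups were separate, and the calls held in 18, 15 and 16 of 19 alternatives for Psmc4, Psmc1 and Psmc5. Psmc2, Psmc3 and Psmc6 were not called, with log2 fold changes of -0.02, 0.03 and -0.18.

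Of the 11 non-ATPase cap subunits, 2 fell and 1 rose in MC38-LM3a, a share called of 27.3%, against 28.0% of all tested genes. Psmd3, a subunit of the cap lid, stood at 278, 291 and 270 TPM in MC38-P and at 229, 235 and 248 TPM in MC38-LM3a (log2 fold change -0.24 ± 0.06, limma adjusted p = 0.0114). Psmd11, a lid subunit that contacts the core, fell by 0.26 on the log2 scale (limma adjusted p = 0.0342), from 313, 308 and 263 TPM to 234, 234 and 270 TPM. The third replicate of each line lay within the range of the other line, so the groups overlapped for Psmd11, and its call held in 9 of 19 alternative analyses. Psmd8, another lid subunit, rose by 0.23 ± 0.07 (limma adjusted p = 0.0361), and this call held in 7 of 19.

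Psmb2, a structural beta subunit, was the core gene that rose in MC38-LM3a. Its levels were 321, 306 and 316 TPM in MC38-P, against 380, 360 and 362 TPM in the derivative. The difference of 0.22 ± 0.05 on the log2 scale was called (limma adjusted p = 0.00893), with no overlap of the groups. In MC38-LM3b its levels of 324, 331 and 345 TPM were also all above MC38-P, with a log2 fold change of 0.08 ± 0.05 that was not called (limma adjusted p = 0.197).

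In MC38-LM3b, 12 of the 35 members were lower than in MC38-P, against 11.2% of all tested genes, and 1 was higher, against 35.6%. The lower genes were 5 of the core (Psma1, Psma4, Psma5, Psmb3 and Psmb7) and 7 of the cap (Psmc1, Psmc4, Psmc5, Psmd3, Psmd7, Psmd14 and Psmc3ip). Lower core genes numbered 2 without MC38-P replicate 3 and 7 without MC38-LM3a replicate 3, where 10.7% and 13.8% of tested genes were lower. The median log2 fold change was -0.15 over the core, -0.10 over the cap and 0.21 over all tested genes, and 34 of the 35 members lay below that last median. No member exceeded an absolute log2 fold change of 1, which 3.93% of tested genes did with an adjusted p under 0.05. Changes below are relative to MC38-P on the deposited scale, and with each library centred on its median the core and cap medians became -0.37 and -0.33. With that centring 26 members were lower and none higher, against 26.4% and 22.9% of tested genes. With offsets for GC content and length 26 were lower and none higher, against 28.8% and 29.7%.

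The falls in the core of MC38-LM3b included both rings. Psma5, an alpha-ring subunit, stood at 667, 642 and 684 TPM in MC38-P and at 552, 559 and 549 TPM in MC38-LM3b (log2 fold change -0.26 ± 0.05, limma adjusted p = 0.00202). Psmb3, a structural beta subunit, stood at 748, 775 and 882 TPM and then at 631, 650 and 639 TPM (-0.32 ± 0.09, limma adjusted p = 0.0168). Neither gene overlapped between the groups. Psma1 and Psma4, both of the alpha ring, fell by 0.18 and 0.15 on the log2 scale, and each of these calls held in 10 of 19 alternatives. Psma2, Psma3, Psma6, Psma7, Psmb1, Psmb2, Psmb4, Psmb5 and Psmb6 were not called, with log2 fold changes from -0.24 to 0.08.

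In the cap of MC38-LM3b the same 3 ATPase genes were lower. Psmc4 measured 193, 199 and 201 TPM, a log2 fold change of -0.29 ± 0.05 (limma adjusted p = 0.00145). Psmc5 measured 221, 223 and 235 TPM (-0.27 ± 0.06, limma adjusted p = 0.00334), against 272, 263 and 284 TPM in MC38-P. Psmc1 measured 291, 292 and 286 TPM (-0.21 ± 0.05, limma adjusted p = 0.00784), against 338, 332 and 333 TPM. All 3 were separated from MC38-P, and these calls held in all 19 alternatives. The remaining falls among cap subunits were in the lid: Psmd14, the deubiquitinating enzyme of the cap, fell by 0.16 on the log2 scale, its partner Psmd7 fell by 0.18, and Psmd3 fell by 0.17. These calls held in 13, 18 and 13 of 19 alternatives.

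**Figure D2:**
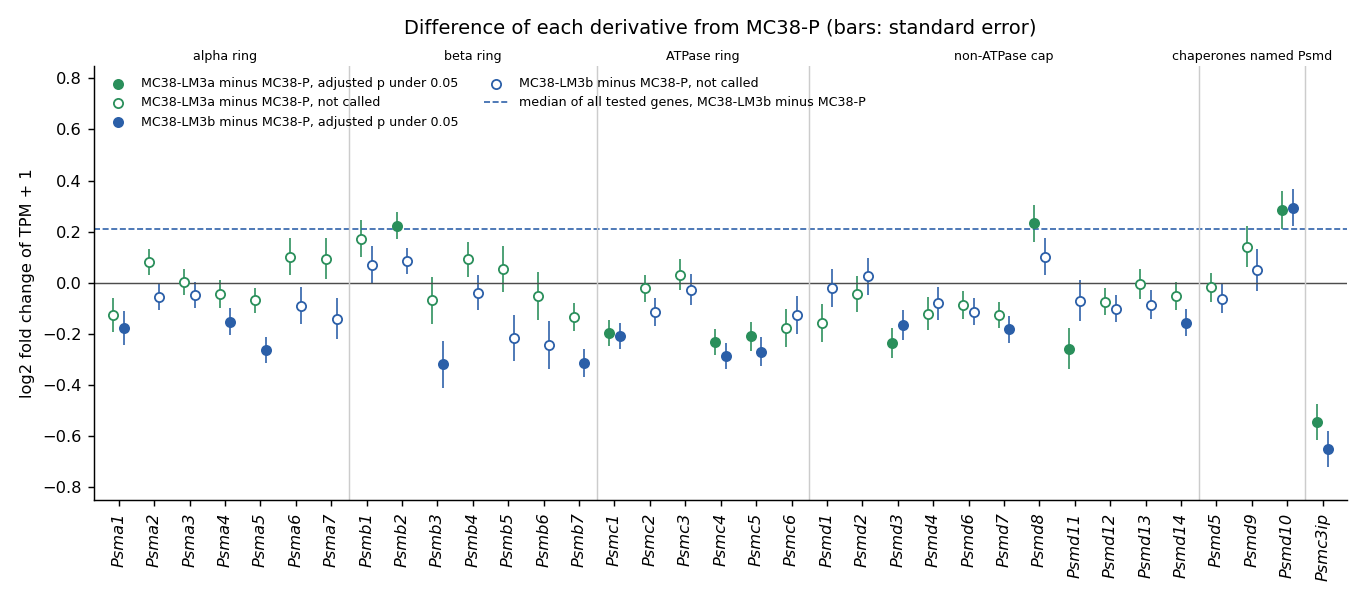
Log2 fold change of TPM + 1 for each of the 35 genes in MC38-LM3a and in MC38-LM3b, both against MC38-P, with bars of 1 standard error, filled where the limma adjusted p is under 0.05. For MC38-LM3b, 34 genes lie below the dashed line at 0.21, the median of all tested genes.

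Genes called with 1 sign in both derivatives were Psmc1, Psmc4, Psmc5, Psmd3 and Psmc3ip, which fell, and Psmd10, which rose. The share of all tested genes called with 1 sign in both is not given here, so this list has no background to be read against. Taken singly, the comparisons had 13.8% (MC38-LM3a) and 11.2% (MC38-LM3b) of tested genes lower, and 14.1% and 35.6% higher. The 2 comparisons share the MC38-P libraries and are not independent. Every derivative library lay below every MC38-P library for 10 members (2 core and 8 cap), against 12.3% of tested genes, and above for 2 members, Psmb2 and Psmd10, against 19.1%. Psmc3ip, the gene that is not a subunit, had the largest difference of the 35. The parental libraries held 52.7, 52.7 and 52.4 TPM of it, the MC38-LM3a libraries 37.0, 34.4 and 35.8 TPM, and the MC38-LM3b libraries 34.5, 32.1 and 32.8 TPM. The log2 fold changes were -0.55 ± 0.07 (limma adjusted p = 0.00027) and -0.65 ± 0.07 (limma adjusted p = 6.66e-05), and the calls held in all 19 alternatives of both comparisons.

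The opposite direction was taken by Psmd10, a chaperone of the ATPase ring that was first described as an oncoprotein. It stood at 41.3, 41.0 and 43.7 TPM in MC38-P, whereas the MC38-LM3a libraries held 50.2, 55.2 and 48.9 TPM and the MC38-LM3b libraries 50.5, 53.5 and 51.1 TPM. Both derivatives were above the parental range, with log2 fold changes of 0.28 ± 0.07 (limma adjusted p = 0.0148) and 0.29 ± 0.07 (limma adjusted p = 0.00847). The calls held in 12 and 15 of 19 alternatives. In MC38-LM3a the log2 fold change ranged from 0.13 to 0.35 over the alternatives, and no cap gene was called higher with median centring or quantile normalization. In MC38-LM3b the value lay near the median of 0.21 over all genes, and it was 0.05 with offsets for GC content and length, 0.07 with median centring and 0.10 with quantile normalization, none of them called. The other chaperones, Psmd5 and Psmd9, were not called, at -0.02 and 0.14 in MC38-LM3a and at -0.06 and 0.05 in MC38-LM3b.

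Between the derivatives no member was called by limma with adjustment, against 0.0354% of tested genes called higher and 0.0177% called lower in MC38-LM3b. At an unadjusted p under 0.05 there were 9 members, against 38.1% of tested genes. All 14 core genes had a negative log2 fold change, from -0.27 for Psmb5 to -0.05 for Psma3, with a median of -0.16. The median over the cap was -0.04, and the cap genes divided into 7 above 0 and 14 below 0. Without MC38-LM3a replicate 3, 14 members were called: 11 core genes and 1 cap gene lower, and 2 cap genes higher, while 52.2% of tested genes were called higher and 4.24% lower.

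The distance between core and cap varied between libraries. The mean log2(TPM + 1) of the core minus that of the cap was 1.29, 1.31 and 1.41 in the parental libraries. It was 1.50, 1.51 and 1.34 in the MC38-LM3a libraries and 1.31, 1.31 and 1.30 in those of MC38-LM3b. Replicates 1 and 2 of MC38-LM3a lay above every other library, and its replicate 3 fell inside the parental range. The group difference of MC38-LM3a from MC38-P was 0.11, and it was 0.21 without the third replicates of both lines. For MC38-LM3b it was -0.03, and 0.03 with offsets for GC content and length or with quantile normalization. The cap mean of every derivative library, 7.47 to 7.51, lay below the parental range of 7.57 to 7.60, whereas the core mean of MC38-LM3a, 8.85 to 9.00, included the parental range of 8.89 to 8.98. The core mean of MC38-LM3b, 8.77 to 8.80, lay below both. With the cap limited to its subunits, core minus cap was 0.83, 0.84 and 0.96 in the MC38-P libraries. It was 1.05, 1.07 and 0.88 in those of MC38-LM3a, and 0.86, 0.86 and 0.84 in those of MC38-LM3b.

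**Figure D3:**
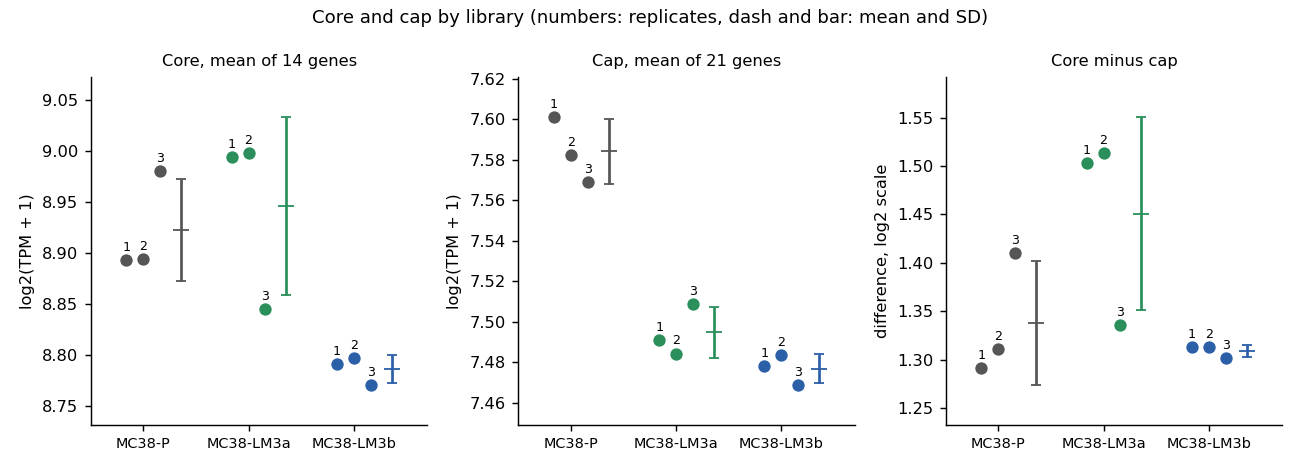
Mean log2(TPM + 1) of the 14 core genes, of the 21 cap genes, and their difference, for each library (numbers give the replicate) with the group mean and SD. In MC38-LM3a the difference is 1.50, 1.51 and 1.34, and in MC38-LM3b it is 1.30 or 1.31 in every library.

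Transcript length moved with these differences. Core transcripts were short, with a median of 1162.5 bases, against 1636 bases for the cap genes and 2881.5 bases for all tested genes with a length. Across the 35 genes, the log2 fold change between the derivatives increased with length (Spearman rho = 0.70), as it did across 11096 tested genes (rho = 0.63). The deviation of MC38-LM3a replicate 3 from its group followed length in the 35 genes (rho = 0.64), and that of MC38-P replicate 3 ran against it (rho = -0.60). These are descriptions across genes of the same libraries, and the part of length in the fold changes was not tested. With offsets for GC content and length fitted in each library, 18 members were called for MC38-LM3a (2 higher, 16 lower) and 26 for MC38-LM3b (all lower, 10 core and 16 cap), while 27.1% and 29.7% of tested genes were higher and 25.3% and 28.8% lower.

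**Figure D4:**
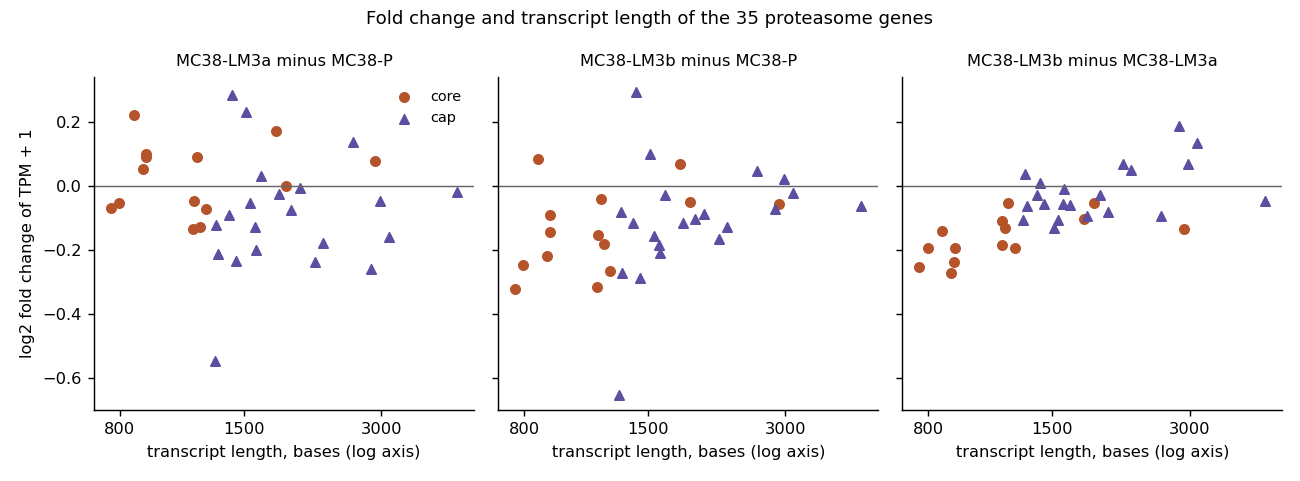
Log2 fold change of TPM + 1 against transcript length in bases (log axis) for the core and cap genes in the 3 comparisons. Between the derivatives the shortest genes, most of them core genes, lie lowest (rho = 0.70 over 35 genes), and the relation against MC38-P is weaker (rho = -0.14 for MC38-LM3a and 0.45 for MC38-LM3b).

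Of the 3 constitutive active-site genes, Psmb7 was called against MC38-P, and Psmb5 and Psmb6 were not. Psmb5 stood at 509, 500 and 597 TPM in the parental libraries, at 582, 598 and 489 TPM in those of MC38-LM3a, and at 478, 442 and 458 TPM in those of MC38-LM3b. Psmb6 stood at 412, 431 and 484 TPM, at 440, 478 and 368 TPM, and at 387, 367 and 363 TPM in the same order. Their log2 fold changes in MC38-LM3b were -0.22 ± 0.09 (limma adjusted p = 0.0674) and -0.24 ± 0.09 (limma adjusted p = 0.0526), although every MC38-LM3b library was below every parental one. Psmb5 and Psmb6 were called lower in MC38-LM3b in 5 and 9 of 19 alternatives.

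Psmb7 was the active-site gene called lower in MC38-LM3b on the deposited scale. The parental libraries held 647, 605 and 645 TPM of it, the MC38-LM3a libraries 596, 555 and 578 TPM, and the MC38-LM3b libraries 490, 528 and 506 TPM. The 3 lines did not overlap. The log2 fold change was -0.32 ± 0.06 in MC38-LM3b (limma adjusted p = 0.00123), called in all 19 alternatives, and -0.13 ± 0.06 in MC38-LM3a (limma adjusted p = 0.0998), called in 2 of 19.

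Set against their inducible counterparts, all 3 had lower ratios in the derivatives, where the inducible genes were higher. Psmb8 rose from 41.4 ± 3.94 TPM to 149 ± 11.2 TPM (MC38-LM3a) and 149 ± 5.77 TPM (MC38-LM3b), a log2 fold change of 1.82 in each. Psmb9 rose by 2.03 and 2.40 and Psmb10 by 0.70 and 0.53 on the log2 scale, whereas Psmb5 in MC38-LM3a stood at 0.05. The mean TPM ratio of Psmb5 to Psmb8 was 13.0 ± 1.10 in the parental line, 3.73 ± 0.22 in MC38-LM3a and 3.09 ± 0.06 in MC38-LM3b (SD, with 3 libraries each). That of Psmb6 to Psmb9 was 66.6 ± 23.6, 13.6 ± 1.14 and 9.17 ± 0.96, and that of Psmb7 to Psmb10 was 12.1 ± 0.72, 6.78 ± 0.95 and 6.74 ± 0.85. No derivative library reached the parental range of any pair. The two-sided exact permutation p was 0.1 for each of these 6 differences from MC38-P, the smallest that 3 against 3 libraries allow, and 0.1125 after adjustment over 9 tests. The constitutive gene remained the more abundant of each pair in all 9 libraries, and the inducible gene supplied 24.5% ± 0.36 of the Psmb5 and Psmb8 transcripts in MC38-LM3b.

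**Figure D5:**
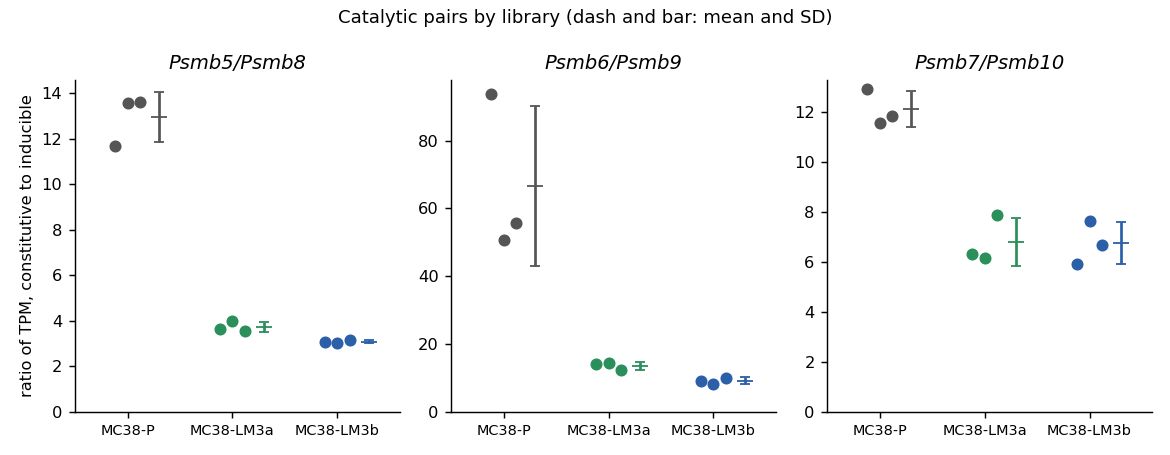
Ratio of the constitutive to the inducible gene in TPM for the 3 active-site pairs, one point per library, with the group mean and SD. The Psmb5 to Psmb8 ratio has a mean of 13.0 in the parental line, against 3.73 for MC38-LM3a and 3.09 for MC38-LM3b.

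Promoters were searched because subunit genes are known to respond together to Nfe2l1 through antioxidant response elements. Sequences from RefSeq (GRCm38.p6), reaching from 250 bases before to 50 bases after each start, matched 29 of the 35 genes with 31 windows. Psmb1, Psmb2, Psmb7, Psmc3, Psmd3 and Psmd7 had no window and were not searched, so nothing is known here of their motifs. The core of that element, TGACNNNGC on either strand, occurred in 5 of the 31 windows (16.1%), against 14.3% of the 11623 windows of tested genes and 12.4% of all 32851 windows. The CCAAT box, read by NF-Y, occurred on either strand in 12 of the 31 windows (38.7%), against 38.5% for tested genes and 37.4% of all, and no TGACNNNGC match overlapped a CCAAT match. The matches of the first motif are printed here 5′ to 3′ on the strand of the gene, with the match in capitals, because they include both Psmb5 and Psmb6. They lie at chr14:54618018-54618058 on the minus strand (Psmb5), and on the plus strand at chr11:70525332-70525372 (Psmb6), chr5:123228143-123228183 (Psmd9), chr14:45329581-45329621 (Psmc6) and chr11:107479278-107479305 (Psmd12).
Psmb5: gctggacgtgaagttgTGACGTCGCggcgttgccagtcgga
Psmb6: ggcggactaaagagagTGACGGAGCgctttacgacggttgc
Psmd9: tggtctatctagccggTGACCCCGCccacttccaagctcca
Psmc6: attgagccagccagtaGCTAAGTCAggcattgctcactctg
Psmd12: tctGCTGTGTCAcatttgcccccctcag

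In Psmb6 the match begins 9 bases before the start site, in Psmd9 31 bases and in Psmb5 47 bases before it, whereas those in Psmc6 and Psmd12 are on the opposite strand, 227 and 247 bases before it. None of these 5 genes was called against MC38-P in either derivative. The 3 ATPase genes that fell in both, Psmc1, Psmc4 and Psmc5, had no TGACNNNGC match in their windows, and Psmc1 alone of them had a CCAAT. A match of letters is a description of the window, not evidence of a bound site.

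Around the particle, most genes of a list of 40 assembly, activator, ubiquitin and regulatory genes were not called. Of the 40, 2 were higher and 4 lower in MC38-LM3a, 8 were higher and 4 lower in MC38-LM3b, and none was called between the derivatives by limma. Over all tested genes the shares were 14.1% higher and 13.8% lower in MC38-LM3a, and 35.6% higher and 11.2% lower in MC38-LM3b. The higher genes in both were Psme1 and Psme2, the interferon-inducible activator that replaces the cap at the core's end, with log2 fold changes of 0.55 and 0.57 in MC38-LM3a and 0.51 and 0.44 in MC38-LM3b. Psme3, the nuclear activator, fell by 0.27 in MC38-LM3a, but the groups overlapped. Its level in MC38-LM3a replicate 3, 213 TPM, lay within the parental range of 210 to 233 TPM.

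Of 5 assembly factors of the core, 2 fell in MC38-LM3b. Psmg3 and Psmg4, chaperones of the alpha ring, fell by 0.45 and 0.26 on the log2 scale, while Psmg1, Psmg2 and Pomp, the maturation factor, were not called at -0.24, -0.14 and 0.00. Adrm1, the ubiquitin receptor of the cap that lacks a Psmd symbol, fell in both derivatives, by 0.22 in MC38-LM3a and 0.18 in MC38-LM3b. Its partner Uchl5 and the small lid subunit Sem1 were not called. Among the substrate shuttles, Ubqln4 fell by 0.51 in MC38-LM3a.

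Nfe2l1 itself rose in MC38-LM3b, by 0.45 on the log2 scale (limma adjusted p = 0.0231), from 128 ± 20.3 TPM in MC38-P to 173 ± 2.59 TPM, with 138 ± 29.2 TPM in MC38-LM3a (SD, n = 3). It stood at 149, 125 and 108 TPM in the MC38-P libraries and at 126, 118 and 172 TPM in those of MC38-LM3a. Replicate 3 of MC38-LM3a thus lay within the MC38-LM3b range of 170 to 175 TPM. The part of the library trends with length in this rise was not tested. Ngly1, the deglycosylase that activates Nfe2l1, rose by 0.39 and the Nfe2l1 dimer partner Mafk by 0.58 in MC38-LM3b. Another partner, Maff, fell in both derivatives, by 0.51 and 0.29. The ubiquitin-activating enzyme Uba6 and the Vcp cofactor Ufd1 rose in MC38-LM3b by 0.44 and 0.22. The median rise of all genes in that comparison was 0.21, and Ufd1 was near it. Uba6 stood at 33.8 TPM in MC38-LM3a replicate 3, against 24.1 TPM in its replicate 2 and 35.7 to 36.1 TPM in MC38-LM3b.

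The 35 genes lay on 15 chromosomes, with 7 on chromosome 11 (Psmb3, Psmb6, Psmc5, Psmd3, Psmd11, Psmd12 and Psmc3ip). The median log2 fold change of these 7 was -0.21 for MC38-LM3a and -0.24 for MC38-LM3b, against 0.00 and 0.20 over the 933 tested genes of that chromosome. Over the 9 libraries, the genes outside the list whose values followed the mean standardised level of the 35 most closely were Pfdn5 (a prefoldin subunit), Krtcap2, Hmgn2, Naca (a ribosome-associated chaperone subunit) and Mrpl17 (a mitochondrial ribosomal protein), with Pearson r from 0.96 to 0.97. These coefficients are given as a description, since they share the group differences and the library trends described above.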

How the data were processed

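Poly(A) RNA of 9 cultures, 3 per line, was sequenced on the DNBSEQ platform. The authors deposited TPM per gene with 2 decimals, summing to 1000000 in each library. The submitters' processing notes name HISAT and GRCm39, and the quantification tool is not given in the sources used here. Here log2(TPM + 1) was modelled with limma 3.58.1 (R 4.3.3), keeping genes that reached 1 TPM in 3 or more libraries. All 9 libraries entered 1 fit with line means and trended empirical Bayes variance, and the Benjamini-Hochberg adjustment ran over every gene tested. Genes were called at an adjusted p under 0.05. Fold changes are on the log2(TPM + 1) scale and understate changes of low genes. The authors' DESeq2 analysis needs counts and was not repeated. P-values measure the spread between cultures labelled biological replicates. Ratios of active-site pairs were compared by exact permutation of libraries. The fit was tested on simulated data. Transcript length and GC content came from GENCODE M21, and the offsets from a loess fit of span 0.3 per library.

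Genes were named by rule: the active-site subunits, members called in both derivatives with one sign, the extremes of abundance in core and cap, genes that are no subunit, the called extremes of each pathway role, and the 5 closest non-members. Other members were named after their values were seen. The members and lists were chosen with earlier results of these data known. Psma8 and Paaf1 were not analysed here. A gene counted in the pathway list is not reported here by name. Alternatives changed the pseudocount, filter, libraries, replicate block, offsets, centring, normalization and the members (subunits only), and omitted single replicates. Leaving out MC38-P replicate 3 and MC38-LM3a replicate 3 together was added after seeing the data.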

Additional observations from a re-analysis of the deposited data

Results flagged for a closer look

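Psma2, an alpha-ring subunit, was the one member for which every library of one derivative lay above every MC38-P library and every library of the other lay below. It stood at 458, 444 and 445 TPM in MC38-P, at 460, 501 and 465 TPM in MC38-LM3a, and at 426, 433 and 438 TPM in MC38-LM3b. The log2 fold change of MC38-LM3b against MC38-LM3a was -0.134, which limma did not call (unadjusted p = 0.026, adjusted p = 0.119), and neither derivative was called against MC38-P. Psma2 was called lower in MC38-LM3b in 3 of 19 alternatives against MC38-P and in 2 of 19 against MC38-LM3a. In MC38-LM3a against MC38-P its log2 fold change was 0.080, and 0.005 with offsets for GC content and length. Whether a single library stood apart was not tested.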

How the results depend on the processing

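The number of members called depended on the scaling and on the libraries, as did the share of all tested genes called, given in parentheses. In MC38-LM3a against MC38-P, 9 members were called (28.0%), against 4 with only these groups in the model (18.6%), 5 with median centring (40.0%), 18 with GC and length offsets (52.4%), and 19 without replicate 3 of MC38-P and of MC38-LM3a (63.6%). Leaving out single replicates gave 5 to 12. There were 5 without MC38-P replicate 2 (18.6%) or MC38-LM3a replicate 2 (22.1%), and 12 without MC38-LM3a replicate 3 (37.4%). In MC38-LM3b against MC38-P, 13 were called (46.7%), against 26 with offsets (58.5%) and 26 with centring (49.3%). Without replicate 3 of MC38-P and of MC38-LM3a, 22 were called (65.3%). Single omissions gave 8 to 15, with 8 without MC38-LM3b replicate 2 (33.1%) and 15 without MC38-LM3a replicate 3 (59.0%). Between the derivatives 0 were called (0.0532%). Single omissions gave 0 to 14, with 14 without MC38-LM3a replicate 3 (56.4%). Without replicate 3 of MC38-P and of MC38-LM3a, 21 were called (71.7%). Core minus cap moved from 0.11 to 0.21 for MC38-LM3a without these libraries, with 0.08 to 0.17 when single replicates were left out (0.17 without MC38-LM3a replicate 3), to 0.0331 (offsets) and 0.0325 (quantile normalization) for MC38-LM3b against MC38-P, with -0.05 to 0.01 when single replicates were left out, and between the derivatives from -0.14 to -0.0476 with offsets and -0.08 with quantile normalization. The log2 ratio of Psmb7 to Psmb10 between the derivatives ranged from -0.10 to 0.11 when single replicates were left out. Psmb3 in MC38-LM3a turned to 0.11 without these libraries, and Psmd2 in MC38-LM3b to -0.17 with offsets and -0.20 with centring; neither was called on the deposited scale. The causes were not tested. With subunits only, 7, 11 and 0 of 31 were called. A p that misses the threshold does not show that levels were equal, and without counts the limit set by depth is unknown.

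Replicate numbers did not pair the libraries. Deviations of same-numbered libraries correlated from -0.66 to -0.17 between MC38-P and MC38-LM3a. Across numbers these lines gave -0.46 to 0.55. The value was 0.55 for MC38-P replicate 1 with MC38-LM3a replicate 3, and 0.48 and 0.49 for MC38-P replicate 3 with MC38-LM3a replicates 1 and 2. Same-numbered libraries correlated from 0.04 to 0.07 with MC38-LM3b, where each library was closest to its own number, as a hint from the data. With a replicate block 5 members were called in MC38-LM3a (19.5% of tested genes), 9 in MC38-LM3b (34.5%) and 0 between the derivatives (0.0177%). With block and offsets together 16 (48.9%) and 24 (55.2%) were called, Psmd2 in MC38-LM3b was at -0.17, and core minus cap was 0.0331 and -0.0476.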
